A study of Mus musculus with 5 samples.

Results

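Of the 27998 genes in the count tables, 8 that encode proteins of the B cell surface are described here: Ms4a1, Cd2, Ccr7, Fcmr, Cd83, Tnfrsf13c, Cd69 and Ly6d. They were taken by name, through their Ensembl identifiers, and they were chosen with their pattern over B cell stages and part of their age pattern in these data known. Their levels over stages are therefore a description with no test. All 8 identifiers were present in each of the 5 tables and held between 212 UMIs (Fcmr) and 7241 UMIs (Ly6d) over all barcodes. A UMI is a unique molecular identifier, which counts 1 captured RNA molecule.

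The 5 single-cell libraries came from bone marrow of Nes-GFP mice, a strain that reports nestin expression. Replicates 2 and 3 were from aged mice of over 20 months and replicates 1, 2 and 3 from young mice of 10 to 12 weeks. In both ages cells lacking CD45 and carrying CD31 were sorted at the endosteum, the inner bone surface, then frozen, thawed and counted at the 3' ends of transcripts in droplets. The number of animals behind a library is not given in the sources used here. The labels call the cells endothelial, but 1907 of 2116 kept cells fell in clusters defined by Cd79a and Ebf1, genes of the B lineage, and 29 of the other 209 cells held 3 or more of 10 endothelial markers. The CD45-negative sort limits what these B-lineage cells stand for, since most B cells in marrow carry CD45.

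Library totals were 1025884 and 1312911 UMIs in aged replicates 2 and 3, and 5900751, 935656 and 1003476 in young replicates 1, 2 and 3. Young replicate 1 stood apart: 17.7% of its B-lineage cells were resting, against 85.9% to 88.3% in the other libraries, and it held 184 of the 209 cells outside the B lineage. Both replicate 2 libraries had Y-linked UMIs and no Xist, and the other 3 libraries had Xist and at most 2 Y-linked UMIs. Barcodes were shared by few cells, since 10 kept cells had a barcode sequence that another library also held.

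B cells arise in marrow from progenitors that rearrange the heavy chain gene and pair it with a surrogate light chain, encoded by Vpreb1, Vpreb2 and Igll1. Large dividing pre-B cells then leave the cycle, rearrange the light chain, and begin to place MHC class II and a set of maturation receptors on their surface. Among the proteins described here, Ms4a1 (CD20) is a tetraspanning B cell antigen, Tnfrsf13c is the BAFF receptor that carries survival signals, and Fcmr is the Fc receptor for IgM. Ccr7 is a chemokine receptor for homing to lymphoid organs, Cd2 an adhesion receptor, and Ly6d a GPI-anchored protein that marks B-committed lymphoid progenitors. Cd83 and Cd69 are induced on activated lymphocytes, and CD69 also holds cells in tissue by opposing the egress receptor S1PR1.

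On GRCm38 (GENCODE M21) the genes lie on separate chromosomes, other than Ly6d (ENSMUSG00000034634, chr15:74762056-74763620, minus strand) and Tnfrsf13c (ENSMUSG00000068105, chr15:82221743-82224369, minus strand). Ms4a1 (ENSMUSG00000024673) is at chr19:11249675-11266241 on the minus strand and Cd2 (ENSMUSG00000027863) at chr3:101275899-101287939 on the minus strand. Ccr7 (ENSMUSG00000037944) is at chr11:99144196-99155077 on the minus strand and Cd69 (ENSMUSG00000030156) at chr6:129267325-129275436 on the minus strand. Fcmr (ENSMUSG00000042474) is at chr1:130865669-130880791 and Cd83 (ENSMUSG00000015396) at chr13:43784775-43803132, both on the plus strand.

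The RefSeq promoter table (GRCm38.p6) held 2 of the 8 genes, Fcmr and Tnfrsf13c. Their promoters are shown because the other genes had no entry. Both receptors were higher in MHC class II-positive than in surrogate light chain-positive cells of every library, as were all of the others but Cd69. Each line gives 300 bases 5′ to 3′ on the gene's own strand, Fcmr from chr1:130865527-130865826 (plus) and Tnfrsf13c from chr15:82224331-82224630 (minus), with E-boxes (CANNTG) in capitals.
Fcmr: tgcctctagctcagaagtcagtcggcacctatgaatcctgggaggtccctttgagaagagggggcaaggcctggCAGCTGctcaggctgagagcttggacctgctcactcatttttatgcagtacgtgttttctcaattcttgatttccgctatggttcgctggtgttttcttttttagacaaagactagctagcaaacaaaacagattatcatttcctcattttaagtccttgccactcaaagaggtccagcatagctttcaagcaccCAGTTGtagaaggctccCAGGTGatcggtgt
Tnfrsf13c: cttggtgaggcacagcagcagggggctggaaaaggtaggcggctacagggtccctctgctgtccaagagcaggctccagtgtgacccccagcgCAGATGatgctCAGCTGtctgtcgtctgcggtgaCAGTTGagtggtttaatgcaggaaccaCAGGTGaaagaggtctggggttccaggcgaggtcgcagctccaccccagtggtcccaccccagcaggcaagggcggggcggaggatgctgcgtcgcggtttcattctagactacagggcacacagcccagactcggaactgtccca
The E-box is the core letters bound by bHLH factors such as Tcf3 (E2A), a regulator of B cell commitment. It occurred 3 times in the Fcmr window and 4 times in the Tnfrsf13c window, and 72.3% of 32851 promoters of the same length held at least 1, with a median of 1. The octamer ATGCAAAT, searched on both strands, was in neither window and in 1.74% of promoters. A match of letters does not show binding.

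Cells were placed along B cell development by landmark genes that are not among the 8, on counts thinned to 1000 UMIs per cell. A cell with 2 or more distinct cell cycle genes counted as cycling. Among the 1172 resting cells, 206 had 3 or more MHC class II UMIs (Cd74, H2-Aa, H2-Ab1, H2-Eb1) and are called MHC-II-positive. Another 364 had fewer and held 2 or more UMIs of Vpreb1, Vpreb2 and Igll1 (SLC-positive), and 602 had neither (double-low). At the MHC class II threshold, 29 cells had exactly 3 UMIs and 61 cells had 2, and at the surrogate light chain threshold 33 cells had exactly 2 UMIs and 94 had 1. Levels are CPM, a gene's UMIs scaled to a common total, in the sum of a library's cells of a stage, and shares are percentages of cells with a UMI after thinning.

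All of the 8 genes but Cd69 averaged lower in SLC-positive cells than in both later resting stages, and Cd69 was level. Past 2-fold in each of the 5 libraries, MHC-II-positive over SLC-positive cells, were Cd2, Ccr7, Fcmr, Cd83, Tnfrsf13c and Ly6d. Of all 5590 genes with at least 20 CPM over resting cells, 0.805% were that much higher and 2.09% that much lower in every library. Cd83, at 18.8 CPM, was under that minimum. Since the genes were picked for this pattern, the count describes them and supports nothing.

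Ly6d and Cd2 were already high in double-low cells. Ly6d, the most abundant of the 8, had 599 and 188 CPM in aged and 96.3, 434 and 263 CPM in young SLC-positive cells. In double-low cells it had 2200 and 2942 CPM in aged libraries and 669, 3102 and 2726 CPM in young ones. In MHC-II-positive cells it had 1536 and 1839 CPM in aged libraries and 2551, 2794 and 3194 CPM in young ones. Every double-low value lay above its own library's SLC-positive value, with young replicate 1 lowest of the 5 libraries. The log2 ratio of double-low over SLC-positive cells was 2.96 ± 0.77 and that of MHC-II-positive over double-low cells 0.16 ± 1.05 (SD over 5 libraries).

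Cd2 had 124 and 33.4 CPM in aged and 6.42, 57.8 and 68.0 CPM in young SLC-positive cells. These levels came from 43 and 8 UMIs in aged and 1, 8 and 16 UMIs in young libraries. The Cd2 ratios over SLC-positive cells in young replicate 1 thus rest on 1 UMI. Double-low cells had 692 and 725 CPM in aged libraries and 185, 1510 and 580 CPM in young ones. MHC-II-positive cells had 593 and 440 CPM in aged libraries and 182, 1026 and 528 CPM in young ones. Cd2 was thus lower in MHC-II-positive than in double-low cells in each library, by a mean log2 ratio of -0.33 ± 0.29, and higher in double-low than in SLC-positive cells by 3.78 ± 0.97 (SD, n = 5). Young replicate 2 was the highest library and young replicate 1 the lowest in both later stages. Cd2, Ccr7 and Ly6d were past 2-fold, double-low over SLC-positive, in every library, as were 0.841% of the 5590 genes, and 2.13% were 2-fold lower.

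Ms4a1 and Cd83 were highest in MHC-II-positive cells. Ms4a1 held 4 and 0 UMIs in aged and 1, 4 and 0 UMIs in young SLC-positive cells. In double-low cells its level was 19.7 and 59.7 CPM in aged libraries and 36.2, 269 and 35.3 CPM in young ones. In MHC-II-positive cells it was 17.5 and 224 CPM in aged libraries and 495, 360 and 284 CPM in young ones. Aged replicate 2 was the exception, with 1 UMI in its 18 MHC-II-positive cells, and in the other 4 libraries the MHC-II-positive level was the highest of the 3 resting stages. Ratios of Ms4a1, Ccr7, Fcmr and Cd83 over SLC-positive cells rest on 0 to 10 UMIs per library there. They depend on the prior count (0.5, in proportion to depth), so levels or UMIs are given in their place. Ccr7 held 10 and 0 UMIs in aged and 3, 1 and 5 UMIs in young SLC-positive cells, and Fcmr 9 and 0, and 1, 3 and 2. Aged replicate 3 held 0 SLC-positive UMIs of Ccr7, Fcmr and Cd83. The ratios behind their 2-fold results above were set there by the prior count.

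Cd83 was sparse, with 5 UMIs in all SLC-positive cells, 22 in double-low cells and 29 in MHC-II-positive cells. Its level in MHC-II-positive cells was 17.5 and 34.5 CPM in aged libraries and 117, 76.5 and 40.6 CPM in young ones. In double-low cells it was 6.56 and 2.98 CPM in aged libraries and 9.04, 47.1 and 15.1 CPM in young ones. The MHC-II-positive level was the higher in all 5 libraries, on 1 to 10 UMIs each.

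Fcmr, Ccr7 and Tnfrsf13c were higher in both later resting stages on average. Each was past 2-fold, MHC-II-positive over double-low, in 1 library only. Tnfrsf13c was higher in MHC-II-positive than in double-low cells in 4 of 5 libraries. Fcmr had 69.8 and 77.7 CPM in aged and 247, 107 and 89.4 CPM in young MHC-II-positive cells, against 52.5 and 59.7 CPM in aged and 0, 84.1 and 80.6 CPM in young double-low cells. It was higher in MHC-II-positive cells in 5 of 5 libraries, but past 2-fold only in young replicate 1. Ccr7 had 122 and 207 CPM in aged and 234, 222 and 73.1 CPM in young MHC-II-positive cells, against 118 and 110 CPM in aged and 45.2, 286 and 75.6 CPM in young double-low cells. These Ccr7 stages overlapped, with 3 of 5 libraries higher in MHC-II-positive cells.

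Tnfrsf13c was already measured in SLC-positive cells of every library. It had 266 and 108 CPM in aged and 51.4, 289 and 187 CPM in young SLC-positive cells. Double-low cells had 495 and 573 CPM in aged libraries and 158, 360 and 559 CPM in young ones, and MHC-II-positive cells had 628 and 414 CPM in aged libraries and 416, 589 and 715 CPM in young ones. Its log2 ratio of MHC-II-positive over SLC-positive cells was 1.80 ± 0.74, against 3.11 ± 1.22 for Ly6d and 3.39 ± 0.81 for Cd2 (SD, n = 5). None of the 8 genes was past 2-fold, MHC-II-positive over double-low, in every library, against 0.107% of the 5590 genes, and 0.0716% were 2-fold lower.

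Cd69 did not follow the others. It had 370 and 275 CPM in aged and 340, 549 and 646 CPM in young SLC-positive cells, and 384 and 458 CPM in aged and 351, 375 and 764 CPM in young MHC-II-positive cells. The log2 ratio of MHC-II-positive over SLC-positive cells was 0.10 ± 0.46 (SD, n = 5), which is within the spread between libraries.

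**Figure D1:**
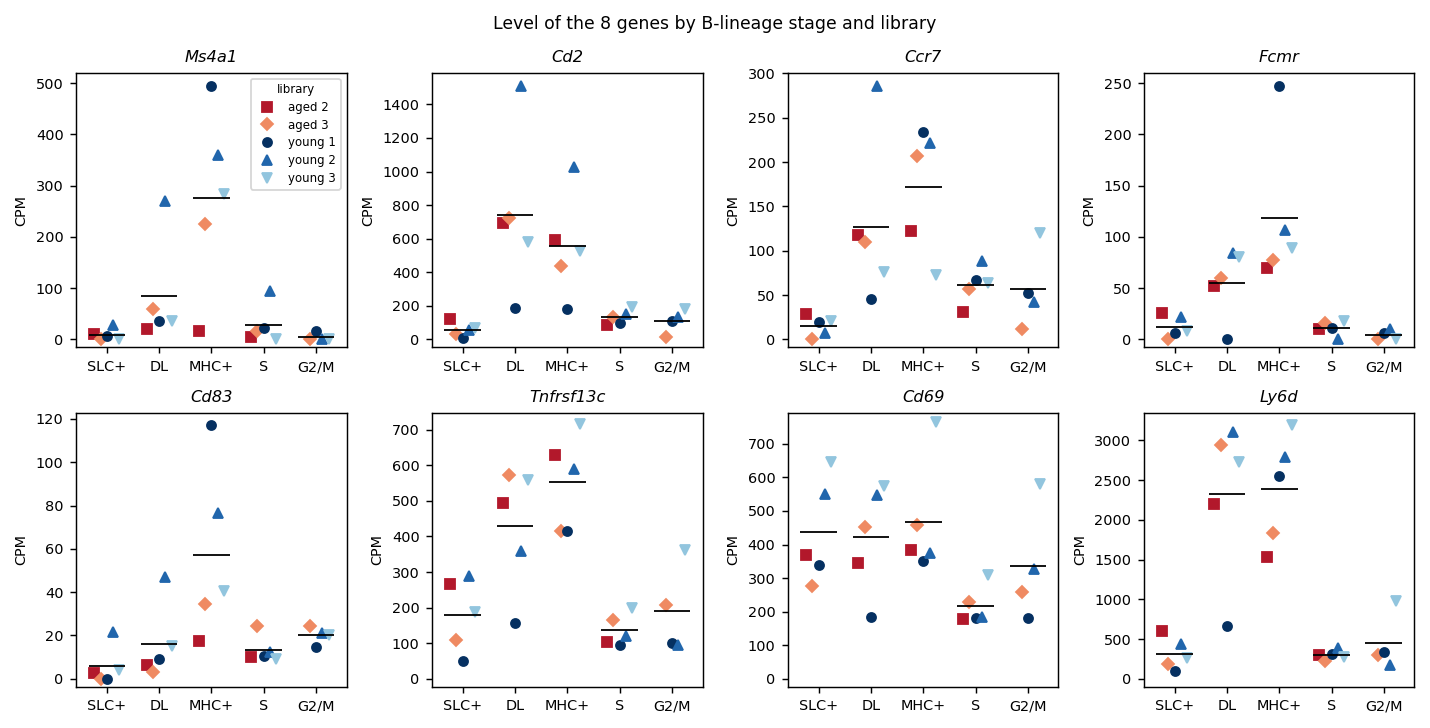
Levels of the 8 genes (y axis, CPM, 1 panel per gene) in SLC-positive (SLC+), double-low (DL), MHC-II-positive (MHC+), S-leaning (S) and G2/M-leaning (G2/M) B-lineage cells (x axis); each point is a library, and black lines are means over libraries with at least 10 cells of the stage. Ly6d and Cd2 step up between SLC+ and DL, Ms4a1 (except in aged replicate 2) and Cd83 are highest in MHC+, Cd69 is level over the 3 resting stages, and most points of the 2 cycling stages are low.

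Cycling B-lineage cells (median 4089 UMIs) had a lower CPM of each of the 8 genes than MHC-II-positive cells. Over all libraries, S-leaning and G2/M-leaning cells had 311 and 343 CPM of Ly6d, 112 and 104 CPM of Cd2, 111 and 111 CPM of Tnfrsf13c, and 194 and 198 CPM of Cd69. Young replicate 1 supplied 581 of the 735 cycling cells, so these sums are mostly that library. Cd69 had a lower CPM in S-leaning than in SLC-positive cells in each library. S-leaning cells had 179 and 230 CPM in aged and 182, 183 and 309 CPM in young libraries. On full counts Cd69 was in 48.7% of S-leaning and 50.8% of SLC-positive cells, with medians of 4033.5 and 2782.5 UMIs. The part of the larger totals in the lower CPM was not tested.

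The sorted cells were also clustered with the 8 genes left out of the variable genes, so that the clusters were not drawn by them. The 2 clusters led by MHC class II transcripts differed in the 8 genes. Cluster 10 (28 cells, 1 and 6 aged, and 16, 1 and 4 young) held Ms4a1 in 60.7% of cells, Tnfrsf13c in 64.3%, Ly6d in 92.9%, and Fcmr and Cd83 in 28.6% each. Its leading genes by fold were Ms4a1, Cd74, H2-DMb2, Fcmr, H2-Eb1 and H2-Aa. Cluster 5 (215 cells), led by Cd74, H2-Aa, H2-Ab1 and H2-Eb1, held Ms4a1 in 0.930% of cells and Cd83 in none after thinning (0 of 215 cells, with an exact upper 95% bound of 1.70% for cells with a UMI at that depth). On full counts cluster 5 held 3 Cd83 UMIs, in 1.40% of its cells. Cd2 was in 28.8% of cluster 5 and in 17.9% of cluster 10.

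Cluster 4 (218 cells, 66 of them in aged replicate 2 and 114 in young replicate 2) was led by Cd2. It had the highest Cd2 share, 60.1%, with Ly6d in 87.2% and Ms4a1 in 14.2%. The leading genes of cluster 4 also included Eif2s3y, a Y-linked gene, and both replicate 2 libraries had Y-linked UMIs. Library and stage cannot be told apart in this cluster. Of its 31 cells with Ms4a1 after thinning, 23 were in young replicate 2, and 27 of its 218 cells were MHC-II-positive. Ms4a1 was thus found in cells under the MHC class II threshold too, and in cluster 4 mostly in 1 library. In cluster 1 (275 cells), led by Vpreb2, Dntt and Vpreb1, Cd2 was in 1.82% of cells, Ly6d in 9.09% and Cd69 in 25.1%.

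**Figure D2:**
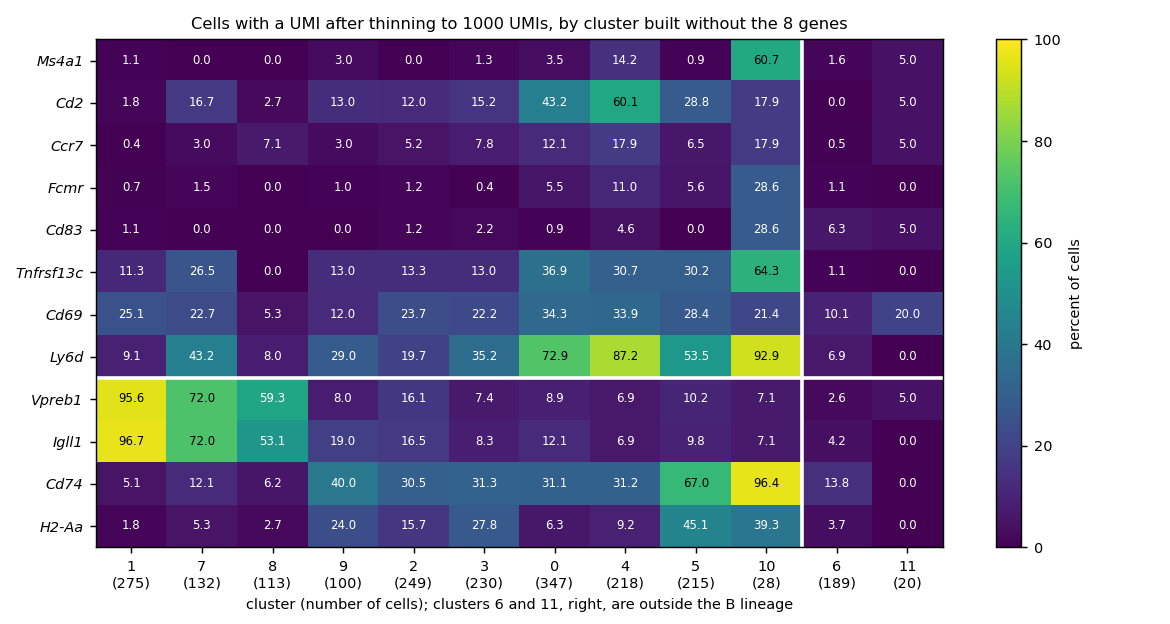
Share of cells with a UMI after thinning (colour and printed value, percent) for the 8 genes above the line and 4 landmark genes below it, in 12 clusters built without the 8 genes (x axis, number of cells in brackets). Ms4a1 peaks at 60.7% in cluster 10 and Cd2 at 60.1% in cluster 4, and Cd69 stays between 5.3% and 34.3% across all clusters.

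Detection was then followed along MHC class II alone, in resting cells with fewer than 2 surrogate light chain UMIs. The share of cells with Ms4a1 was 4.90% with no MHC class II UMI, 5.67% with 1 to 2, 10.96% with 3 to 5, 11.8% with 6 to 10 and 18.2% with 11 or more. The exact 95% intervals were 3.02% to 7.47% in the first bin (408 cells) and 9.08% to 30.9% in the last (55 cells). Young replicate 2 held 12 of the 20 Ms4a1 cells of the first bin, and without it the share was 2.46% there and 18.6% in the last bin. Within young replicate 2 the shares were 14.5% in the first bin and 16.7% in the last (2 of 12 cells). Ly6d was flat, between 65.5% and 72.1%, and Cd2 was 47.5%, 42.3%, 30.1%, 33.8% and 40.0% over the bins. The Cd2 interval of the 3 to 5 bin (19.9% to 42.0%) lay below that of the first bin (42.6% to 52.5%), and that of the last bin overlapped both. Intervals cover counting error only and pool the 5 libraries.

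**Figure D3:**
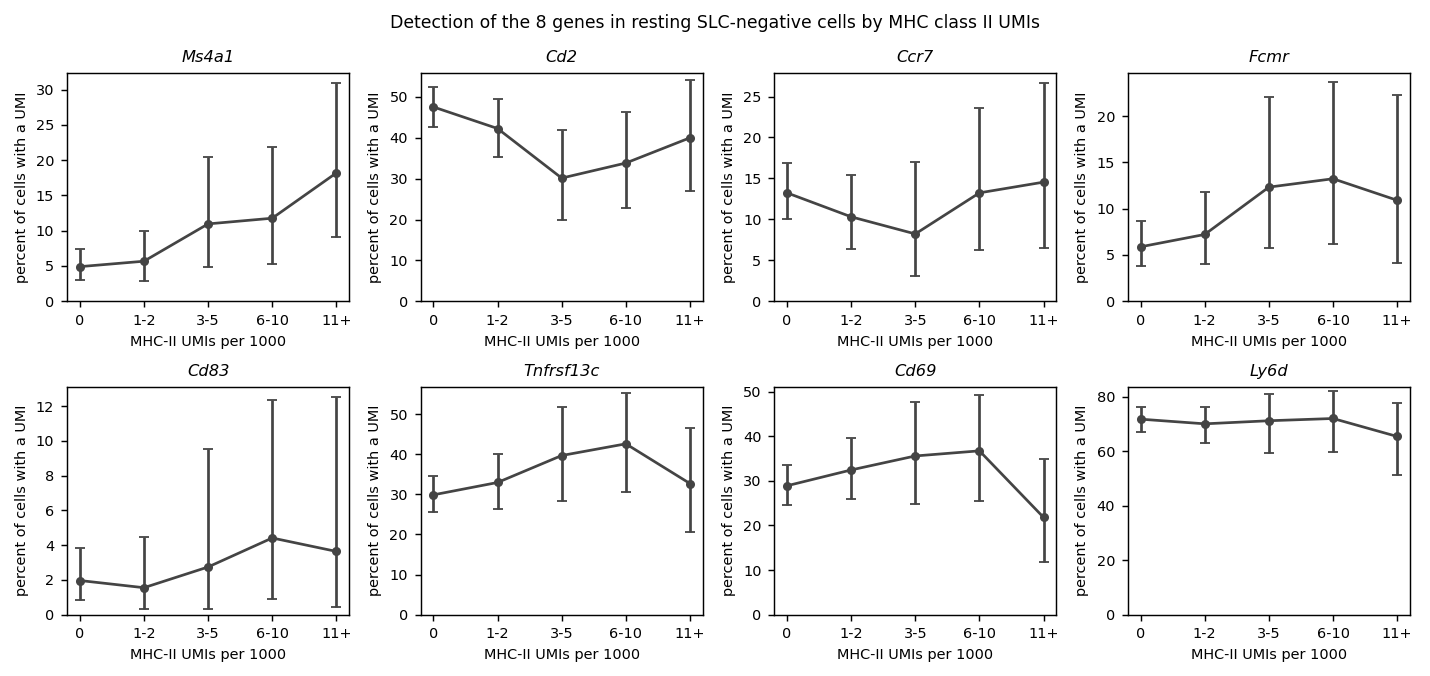
Percent of resting, surrogate light chain-low cells with a UMI of each gene (y axis) by MHC class II UMIs per 1000 (x axis), pooled over libraries; bars are exact 95% binomial intervals. Ms4a1 is in 18.2% of cells in the highest bin and 4.90% in the lowest, while Ly6d stays between 65.5% and 72.1%.

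Cells were next asked how many of the 8 genes they held together. After thinning, a resting cell held a mean of 0.736 of the 8 genes in SLC-positive, 2.04 in double-low and 2.12 in MHC-II-positive cells, with 12 of 206 MHC-II-positive cells holding 5 or more. For each pair, the number of cells with both genes was set against the number expected from the 2 shares within each library and stage. Of 28 pairs, 25 had an expected number of at least 5, and their observed over expected ratio had a median of 1.07, with 19 above 1.

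The highest ratio was that of Ms4a1 with Fcmr, 2.19 (12 cells observed, 5.48 expected), which was above 1 in 4 of 5 libraries. Ms4a1 with Ccr7 had 1.62 (13 and 8.01 cells), Ms4a1 with Tnfrsf13c 1.28 (25 and 19.5 cells, above 1 in 5 of 5 libraries), and Ms4a1 with Ly6d 1.24 (52 and 41.9 cells). The lowest ratios were those of Cd83 with Tnfrsf13c, 0.624 (4 and 6.41 cells), and of Ms4a1 with Cd69, 0.682 (13 and 19.1 cells). Ms4a1 with Cd83 had 7 cells, with 2.07 expected, too few for a ratio. Within a library the expected numbers were small, 0.0776 to 2.56 cells for Ms4a1 with Fcmr and 0.826 to 7.67 for Ms4a1 with Tnfrsf13c. In aged replicate 2 Ms4a1 with Tnfrsf13c was above 1 on 1 cell. The counts of libraries above 1 are therefore weak. Cells of 1 library share their source, so the ratios carry no test.

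**Figure D4:**
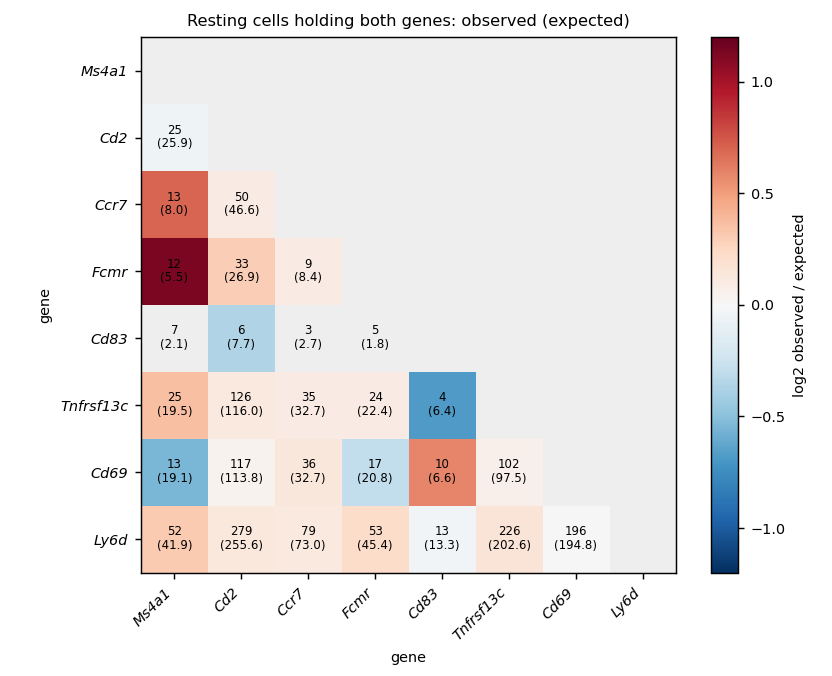
Number of resting cells with both genes of a pair (printed, expected number in brackets) and log2 of observed over expected (colour), for the 25 pairs with an expected number of at least 5; pairs without colour had fewer. The Ms4a1 with Fcmr cell is the deepest red, at 12 observed and 5.5 expected, and most other cells are near white.

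Cells with Cd69 also had more transcripts of a 13-gene immediate early list (Fos, Jun, Jund, Dusp1 and others, which respond quickly to stimulation). After thinning, they had 6.03 and 5.71 list UMIs per cell in aged libraries and 5.71, 9.72 and 5.81 in young ones. Resting cells without Cd69 had 4.91 and 4.62 in aged libraries and 3.93, 7.25 and 4.11 in young ones. The cells with Cd69 were higher in 5 of 5 libraries. In resting cells Jund had 2298 and 1511 CPM in aged and 1756, 4121 and 1517 CPM in young libraries, and Dusp1 39.7 to 104 CPM. Jund thus weighs heavily in the sum, and the list was not compared gene by gene. The effect of freezing and thawing on these levels was not tested.

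Likeness was measured over the 24 sums of a library and stage (5 libraries, stages of at least 10 cells) as Pearson's r of log2 CPM, among 1618 genes. These sums share cells' depth and stage makeup, so r is a description. Ly6d was most like Spib, an ETS factor of B cells (r = 0.97), and Tnfrsf13c was like Atp6v0b, Rgs2 and Spib (r = 0.93, 0.92 and 0.92). Cd2 was most like Fcrla, a B cell Fc receptor-like gene (r = 0.91), Ccr7 like Ralgps2 (r = 0.90), and Fcmr like Arhgap30 and Swap70 (both r = 0.87). Ms4a1 reached 0.78 with Arhgap30. Cd83 had the weakest likeness, 0.71 with Ddx54 and 0.70 with Cd74. Cd69 was most like the nuclear RNA Malat1 (r = 0.86).

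Of 27 other B cell surface receptor genes 23 had at least 20 CPM, and their median log2 ratio of MHC-II-positive over SLC-positive cells was 1.02, against -0.09 over all genes. Only Fcrla was past 2-fold in every library (2.07 ± 0.42), and none of them was 2-fold lower in every library. Of 16 B-lineage transcription factors, all measured, Ikzf3 (2.60 ± 0.96) and Spib (2.00 ± 0.33) were 2-fold higher and Lef1 (-2.62 ± 0.91) 2-fold lower in every library (SD, n = 5). No gene of the NF-kappaB and activation list (13 measured of 23), the immediate early list (12 of 13), the homing and egress list (5 of 12) or the BAFF and IgM receptor partners (11 of 14) was past 2-fold in every library.

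The 1172 resting B-lineage cells (median 2256.5 UMIs) were set beside the 209 cells outside the lineage (median 8411 UMIs), which hold free RNA and other cell types and of which 184 were from young replicate 1. After thinning, Cd2 was in 31.3% of resting B-lineage cells and in 0.478% of cells outside the lineage, and Tnfrsf13c in 27.6% of the resting cells and 0.957% outside. Ly6d was in 55.0% of the resting cells and 6.22% outside, and Cd69 in 346 of 1172 resting cells and 23 of 209 outside. Ccr7 was in 8.79% of the resting cells and Fcmr in 5.63%, each against 0.957% outside. Ms4a1 was in 5.12% of the resting cells and 1.91% outside. In SLC-positive cells Ms4a1 and Ccr7 were each in 3 of 364 cells (0.824%). Ms4a1 had 8.07 CPM there and 11.7 CPM outside the lineage, but Ccr7 had 17.0 CPM there and 8.90 CPM outside. Most cells outside the lineage were from young replicate 1, so whether these low shares are background was not tested.

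Cd83 went the other way. It was in 1.71% of resting B-lineage cells, at 18.8 CPM, and in 6.22% of the cells outside the lineage (13 cells), at 63.7 CPM, so 136 of its 246 kept UMIs (55.3%) lay outside the lineage. That share is also above those in MHC-II-positive (3.40%), double-low (1.83%) and SLC-positive (0.549%) cells, so the cells outside the lineage give no background level for Cd83, and its low levels in B-lineage cells have no such check. Among cells with 3 or more monocyte markers, 7 of 89 held Cd83, at 74.2 CPM, and among those with 3 or more neutrophil markers 7 of 115 did, at 43.5 CPM. Of the 29 cells with 3 or more endothelial markers, 0 held a thinned Cd83 UMI, although their full counts gave 15 UMIs (74.6 CPM). These marker groups overlap, and most of the cells were from young replicate 1.

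The study set aged against young marrow. Summed over resting B-lineage cells, edgeR's quasi-likelihood test (Benjamini-Hochberg adjusted p under 0.05) called 0 of 6351 genes, DESeq2 called 0, and 99 genes (1.56%) had an unadjusted p under 0.05. None of the 8 genes passed in this fit, which has no replicate block, each with an adjusted p of 0.999. Ms4a1 and Cd83 had an unadjusted p under 0.05, both lower in aged libraries.

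Ms4a1 had 11 and 46 UMIs (15.5 and 66.6 CPM) in aged libraries, against 47, 131 and 42 UMIs (104, 231 and 75.4 CPM) in young ones. Both aged values lay below every young value, and the log2 fold change was -1.79 ± 0.60 (SE, unadjusted p = 0.0138). With no filter on low counts edgeR's adjusted p was 0.00462, within a range of 2.63e-07 to 1.00 over the alternatives, and the fold change was -1.05 without aged replicate 2 and -3.24 without aged replicate 3. Cd83 had 4 and 5 UMIs (5.65 and 7.24 CPM) in aged libraries, against 11, 27 and 9 UMIs (24.2, 47.7 and 16.2 CPM) in young ones. Its aged values also lay below every young value, and the log2 fold change was -2.24 ± 0.60 (SE, unadjusted p = 0.00387). Fcmr, at 41.0 and 42.0 CPM in aged and 44.1, 74.2 and 52.1 CPM in young libraries, was the third gene whose groups did not overlap, with a log2 fold change of -0.55 ± 0.32.

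Aged libraries lay below every young library in 4.57% of all genes tested and above in 11.5%, and these 3 of 8 genes were chosen with the age results of Ms4a1 and Cd83 known. The other 5 overlapped, with log2 fold changes of -0.47 ± 0.48 for Ccr7, -0.42 ± 0.36 for Cd69, -0.30 ± 0.62 for Cd2, -0.12 ± 0.41 for Ly6d and 0.15 ± 0.37 for Tnfrsf13c (SE). MHC-II-positive cells were 7.38% and 17.0% of resting cells in aged libraries, against 24.8%, 20.5% and 22.1% in young ones. In bulk sums of this kind fewer cells of a stage and less RNA per cell cannot be told apart, so the comparison was repeated within stages.

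Within MHC-II-positive cells (18 and 58 aged, and 31, 40 and 59 young), edgeR called 0 of 2277 genes, DESeq2 called 0, and 54 genes (2.37%) had an unadjusted p under 0.05. Ms4a1 stayed lower in both aged libraries, with 1 and 26 UMIs (17.5 and 224 CPM) against 38, 47 and 35 UMIs (495, 360 and 284 CPM) in young ones, a log2 fold change of -1.40 ± 0.55 (SE, adjusted p = 0.999). Without aged replicate 2 it was -0.71, and without aged replicate 3 -4.49. The MHC-II-positive cells lay in different clusters by library: cluster 10, with the highest Ms4a1 share, held 0 of 18 and 5 of 58 in aged libraries, and 11 of 31, 1 of 40 and 4 of 59 in young ones. Cluster 5 held 7 and 35 in aged libraries and 15, 17 and 32 in young ones, cluster 7 held 5 of the 18 in aged replicate 2, and cluster 4 held 19 of the 40 in young replicate 2. In cluster 7, 82 of 132 cells were SLC-positive, Vpreb1 was in 72.0% of cells after thinning, and 17.4% of cells were predicted doublets. Cell makeup and RNA per cell therefore cannot be told apart within this stage either. Ly6d had 1536 and 1839 CPM in aged libraries and 2551, 2794 and 3194 CPM in young ones, with no overlap and a log2 fold change of -0.80 ± 0.30 (SE, unadjusted p = 0.0188, adjusted p = 0.999). Fcmr also had both aged values below every young one (-0.91 ± 0.54), and Cd83 did on 1 and 4 aged and 9, 10 and 5 young UMIs, too few to pass the filter. Of all genes tested, 6.9% lay below in this way and 10.1% above.

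In MHC-II-low cells (SLC-positive and double-low together), edgeR called 0 of 5761 genes, DESeq2 0, and 72 (1.25%) had an unadjusted p under 0.05. Ms4a1 had 15.4 and 34.8 CPM in aged libraries and 23.9, 193 and 16.1 CPM in young ones, so the groups overlapped and the log2 fold change of -1.69 ± 0.88 (SE, adjusted p = 1.00) rested on young replicate 2, without which the value was 0.15. Cd2 in the same way had a log2 fold change of -0.27 ± 0.66 and of 0.86 without young replicate 2. Tnfrsf13c was the 1 gene with both aged values above every young one, 373 and 379 CPM against 114, 337 and 357 CPM, and Cd83, too low to pass the filter, was the 1 gene with both below, 4.61 and 1.74 CPM (3 and 1 UMIs) against 5.30, 39.0 and 9.22 CPM (2, 17 and 4 UMIs). Of all genes tested, 10.4% lay above in this way and 4.18% below.

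Whether the age difference itself differed between the 2 resting classes was tested as an interaction, with library as a block. edgeR called 0 of 4743 genes, DESeq2 called 0, and 158 (3.33%) had an unadjusted p under 0.05. Ly6d had the smallest p of the 8 genes, 0.000983, with an adjusted p of 0.999: its aged minus young log2 difference in MHC-II-positive cells less that in MHC-II-low cells was -1.17 ± 0.34 (SE). Tnfrsf13c had -0.71 ± 0.35 (unadjusted p = 0.0494, adjusted p = 0.999). In MHC-II-low cells Ly6d had 1349 and 1793 CPM in aged and 432, 2254 and 1390 CPM in young libraries, lowest in young replicate 1. SLC-positive cells were 44.7% and 25.2% of resting cells in aged and 34.4%, 16.4% and 35.2% in young libraries. The makeup of the MHC-II-low class thus differed between libraries. The interaction was not refitted with a library left out, so the part of young replicate 1 was not tested.

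**Figure D5:**
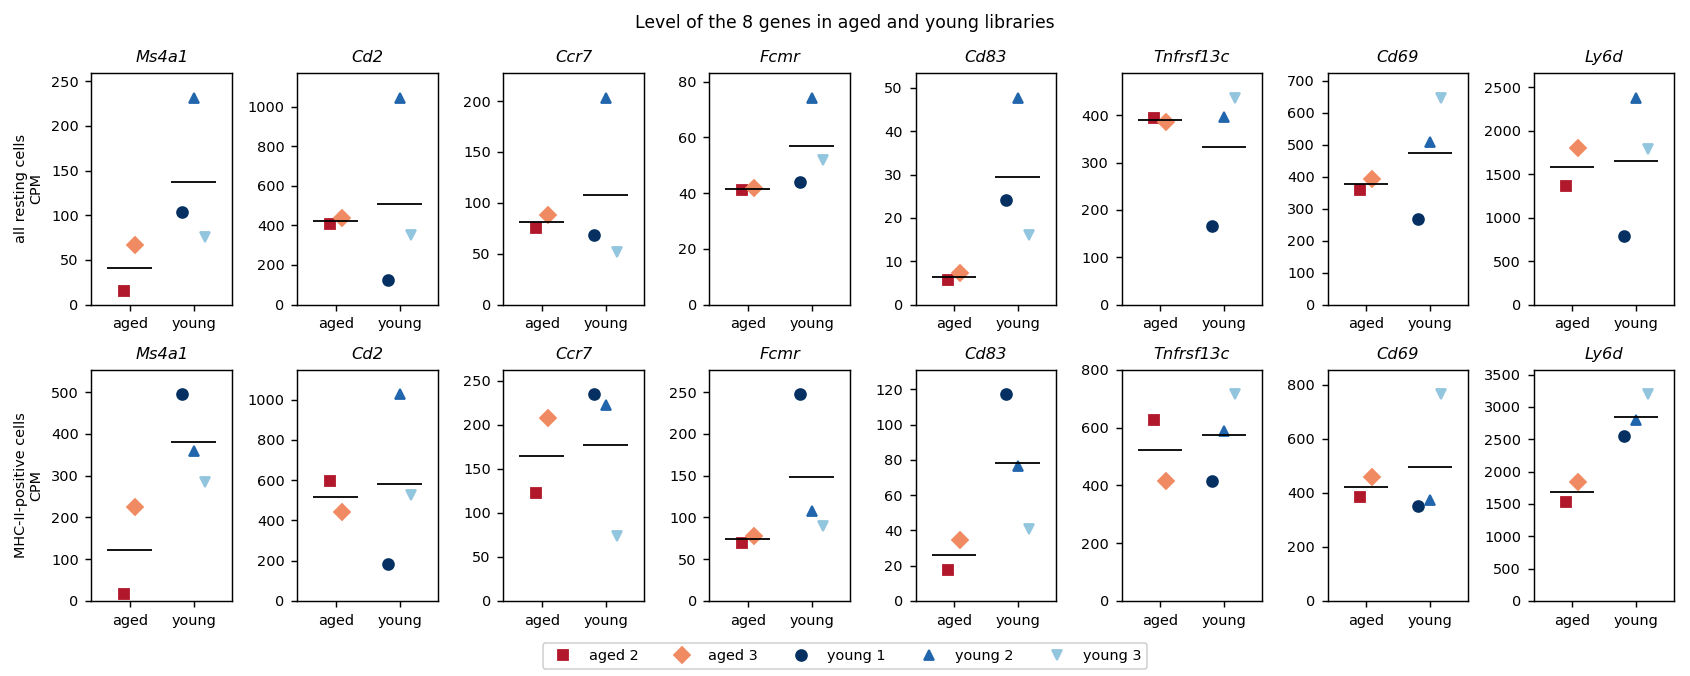
Levels of the 8 genes (y axis, CPM) in aged and young libraries (x axis), in all resting B-lineage cells (top row) and in MHC-II-positive cells (bottom row); each point is a library and black lines are group means. Ms4a1, Fcmr and Cd83 have both aged points below all young points in both rows, and Ly6d does in the bottom row.

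Related genes were described beside them. In resting cells 0 of 24 other B cell surface receptor genes, 0 of 16 NF-kappaB and activation genes, 0 of 12 immediate early genes, 0 of 5 homing genes, 0 of 12 BAFF and IgM receptor partners and 0 of 16 transcription factors passed edgeR's adjusted test, and none had an unadjusted p under 0.05. The median log2 fold change of the surface receptors was 0.10, against -0.02 over all genes tested. All 4 MHC class II landmarks had a log2 fold change below 0 in aged resting cells, with a median of -0.41, and none passed. The groups overlapped for each, and aged replicate 2 was the lowest library for each. Aged replicate 3 was the highest library for H2-Aa and H2-Eb1 and lay within the young range for Cd74 and H2-Ab1. In MHC-II-positive cells 3 of the 4 had a log2 fold change above 0, with a median of 0.26. Within MHC-II-positive cells Igll1 had 349 and 207 CPM in aged libraries and 52.1, 53.6 and 179 CPM in young ones (log2 fold change 1.37 ± 0.50, adjusted p = 0.999), and Cd38, a surface ectoenzyme, 69.8 and 60.4 CPM in aged and 117, 145 and 122 CPM in young ones (-1.03 ± 0.44, adjusted p = 0.999).

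Markers of other cell types in resting cells also varied between libraries. The 6 bone-forming markers summed to 16.9 and 17.4 CPM in aged and 96.9, 147 and 32.3 CPM in young libraries, and the 8 neutrophil markers to 11.3 and 104 CPM in aged and 220, 1.77 and 183 CPM in young ones. Of the 9 T and NK markers 2 to 3 were detected per library, at 19.8 to 35.3 CPM, with Cd3e, Cd3g, Gzma, Cd8a and Cd4 at 0. Of the 8 dendritic markers Itgax, Xcr1, Fscn1 and Ccl22 were at 0, but 2 to 3 were detected per library, at 304 to 446 CPM. The 10 endothelial markers summed to 117 to 270 CPM per library and the 6 monocyte markers to 106 to 181 CPM. Their part in the values of Ms4a1 and Cd83 was not tested.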

How the data were processed

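RNA of single cells was measured in 5 droplet libraries. Per the labels' protocols, the authors sorted, froze and thawed the cells and set PCR cycles for each library. The authors deposited unnormalized UMI counts for every gene in every barcode, made with Cell Ranger on mm10, per the submitters' processing notes, which also list R 3.5.2, edgeR 3.24.3 and DESeq2 1.22.2. The version of Cell Ranger and how barcodes were picked for deposit are not stated in the labels. Symbols came from a table of gene names that matched 27645 of 27998 identifiers.

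Barcodes with at least 500 genes, 1000 UMIs and at most 10% mitochondrial UMIs were kept (2116 of 3384). The 2000 most variable genes other than the 8, 30 components, 15 neighbours and Leiden clustering (scanpy 1.11.5, leidenalg 0.10.2, resolution 0.8) gave 12 clusters. A cluster counted as B lineage where Cd79a and Ebf1 were each in over 50% of its thinned cells. On unthinned counts, the first form of that rule, 20 deeply sequenced cells led by S100a8 and S100a9 also passed, so the rule was changed after seeing the data. Scrublet at an expected rate of 2% marked 58 kept cells as doublets, which stayed in and were left out as an alternative. Stages needed 10 cells in a library. Log2 ratios between stages add a prior count that averages 0.5 over both sums and is in proportion to depth, a choice also made after seeing the data.

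Counts were summed per library and class and tested with edgeR 4.0.16 in R 4.3.3 (TMM, filterByExpr, quasi-likelihood F test, no replicate block). The SE is the log2 fold change divided by the square root of F. P-values measure the spread between libraries, which may be technical in part. On simulated counts, log2 changes of 2 were recovered for 93.2% of changed genes in resting (6125 genes) and 91.0% in MHC-II-positive sums (2050 genes). They were recovered for 95.8% in MHC-II-low sums (5468 genes) and 36.2% in the interaction (4684 genes). The simulation used a fixed dispersion that was not estimated from these libraries. These shares therefore do not measure the power of the fits to these data. In resting cells Cd83, with a log2 fold change of -2.24 ± 0.60 (SE), was not called. Alternatives changed the test, scaling, filters, doublets, depth, thresholds and libraries. Shares carry exact binomial (Clopper-Pearson) intervals at 95%, which cover counting error only. Named genes were the 8, the 3 genes most like each (in part), the landmarks, and genes of pathway lists past a threshold or of small p (in part). The 8 genes, the lists and the stage thresholds were chosen with earlier results of these data known.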

Additional observations from a re-analysis of the deposited data

Results flagged for a closer look

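The barcodes that the filter removed, which enter no main comparison and were let back in part under the looser barcode filter, also held UMIs of all 8 genes, above the limit that a count of 0 allows. The 1268 removed barcodes carried 10.9% of all UMIs. They held 796 UMIs of Ly6d, 500 of Cd69, 244 of Cd2 and 219 of Tnfrsf13c, and 45 of Ccr7, 39 of Ms4a1, 27 of Fcmr and 27 of Cd83. Aged replicate 3 and young replicate 3 had the largest removed shares, 26.2% and 25.6% of their UMIs.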

How the results depend on the processing

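The 20 alternative settings gave 907 further values. Of 288 values of the stage ratios, 287 moved by less than 1 SD between libraries. With landmark thresholds on unthinned counts, Cd2 in MHC-II-positive over double-low cells gave -0.71. A mean with 1 of the 5 libraries left out cannot move by 1 SD, so those values could not fail. The SD also exceeded some ratios, as for Fcmr in MHC-II-positive over double-low cells (1.49 ± 2.65). The count of 287 therefore does not show that the ratios are stable. The 200 co-detection ratios stayed within their intervals. The prior count and the B-lineage rule were changed after seeing the data, and their first forms count among the alternatives. With a prior of 0.5 in each sum whatever its depth, 7 of the 8 genes were past 2-fold in every library, MHC-II-positive over SLC-positive, Ms4a1 being the added one, against 1.07% of all genes. With the B-lineage rule on unthinned counts, 20 more cells entered and no gene was called with age in resting cells. Leaving each library out of the Ms4a1 shares by MHC class II UMIs, also chosen after seeing the data, gave 2.46% to 6.07% with no such UMI and 17.3% to 19.2% with 11 or more.

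Counts of genes called with age moved. With no filter on low counts edgeR called 30 genes in resting cells, Ms4a1 among them (-1.77, adjusted p = 0.00462), 28 in MHC-II-low and 2 in MHC-II-positive cells. Leaving out 1 library gave 0 to 0 calls in resting and in MHC-II-low cells and 0 to 3 in MHC-II-positive cells, the 3 without young replicate 2. The labels give replicate numbers 2 and 3 to libraries of both ages, but the sources do not say what a number marks. Deviations from the age means had r = 0.28 between the libraries numbered 2 and 0.15 between those numbered 3. Aged replicate 3 with young replicate 1 had 0.11. The deviations of 2 aged libraries mirror each other, so these values are not separate and cannot decide whether numbers mark pairs. Both replicate 2 libraries had Y-linked UMIs and both replicate 3 libraries had Xist. With the replicate block edgeR called 36 genes in resting cells, 8 in MHC-II-positive and 16 in MHC-II-low cells. They included Ms4a1 (-1.87), Cd83 (-2.26), Cd2 (-0.61), Cd69 (-0.65) and Ly6d (-0.44) in resting cells, Ly6d (-0.86) in MHC-II-positive cells, and Ms4a1 (-1.89) and Cd69 (-0.69) in MHC-II-low cells. The interaction stayed at 0 calls.

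Some log2 fold changes of the 8 genes changed sign. Leaving out 1 library at a time in resting cells gave -0.74 to 0.69 for Cd2, -0.80 to 0.29 for Ccr7, -0.14 to 0.41 for Tnfrsf13c and -0.43 to 0.17 for Ly6d, and the block gave Tnfrsf13c -0.13. In MHC-II-positive cells it gave -0.63 to 0.43 for Cd2, -0.65 to 0.30 for Ccr7 and -0.56 to 0.20 for Cd69. The block gave Ccr7 0.32, leaving out doublets 0.034 and the threshold at 2 UMIs 0.034. In MHC-II-low cells leaving out a library gave -2.39 to 0.15 for Ms4a1, -0.72 to 0.86 for Cd2, -0.86 to 0.57 for Ccr7, -0.56 to 0.53 for Fcmr and -0.23 to 0.66 for Ly6d, and the block gave Ly6d -0.22. The cause was not tested. Ms4a1 was lower in aged resting cells under every setting run, and Cd83 under each in which it passed the filter. Depth limits Cd83 and Fcmr most, with 1 to 19 UMIs per library in MHC-II-positive cells.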
